A study of Mus musculus with 9 samples.

Results

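Norrin and Wnt signalling genes were examined in the P17 mouse retina as a set of 9 named genes, taken by symbol from a table of 54532 genes. They comprised the ligand (Ndp), its receptor complex (Fzd4, Lrp5, Tspan12), the intracellular effector (Ctnnb1), a nuclear factor (Lef1), an endothelial transcription factor (Sox17) and 2 genes widely read as outputs of the pathway (Apcdd1, Axin2). All 9 passed the filter on low counts, which left 17540 genes for testing.

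Bulk RNA-Seq had been performed on neurosensory retina from 9 wild-type C57BL/6 mice at P17, each mouse being 1 library. Control mice (1, 6 and 7) were non-OIR animals and carry a DMSO label. OIR mice (3, 5 and 6) went through oxygen-induced retinopathy, in which pups are raised in high oxygen and then returned to room air, so that the vessel-poor retina becomes ischemic and forms abnormal vessels; they received the vehicle DMSO by a single intraocular injection at P12. Treated OIR mice (2, 5 and 10) went through the same model and received 1 intraocular injection of the HIF inhibitor 32-134D at P12, given as 70 ng in one label and as a concentration of 70 ng/µl in another. No allele or transgene was used, so all groups share the wild-type genotype; the controls differ from both other groups in oxygen history. The P12 injection is described for both OIR groups and not for the controls, despite their DMSO label, so the OIR model and the injection cannot be told apart in comparisons with control, and by their labels treated mice differ from OIR mice in the injected agent. Mouse numbers name animals and do not pair them across groups.

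Norrin, the protein encoded by Ndp, is secreted in the retina mainly by Müller glia and binds the receptor frizzled 4 on endothelial cells together with the co-receptor LRP5 and the tetraspanin TSPAN12. The complex stabilises β-catenin, which enters the nucleus and acts with TCF/LEF factors on target genes; Sox17 is among the genes known to respond in retinal endothelium. Loss of ligand or receptor in people and mice gives a retina with missing deep capillaries and a leaky blood-retina barrier, and familial exudative vitreoretinopathy and Norrie disease are the human forms.

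Total counts ranged from 16028731 to 27213184 per mouse. The library of treated OIR mouse 2 stood apart, since crystallin genes took 15.8% of its counts against 0.00703% to 0.184% in the other 8 libraries, and 10 lens markers summed to 110400 CPM there (CPM being counts scaled to the effective library size). Retinal ganglion cell markers were also lowest in that library (38.6 CPM summed over 6 genes) and in OIR mouse 6 (91.1 CPM). OIR mice 3 and 5 had 480 and 299 CPM, and treated mice 5 and 10 had 820 and 844 CPM. All of these lay below the 1057 to 1515 CPM of the controls. Treated mouse 2 and OIR mouse 6 are kept in the values below. Markers of rods, Müller glia and endothelium were detected in every library, and markers of microglia, pericytes, pigment epithelium and red blood cells were present too.

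Per kilobase of exon, the 9 genes spanned more than 2 orders of magnitude. In control retina, mean ± SD (n = 3) CPM per kilobase was 59.9 ± 3.95 for Ctnnb1, which also serves cell adhesion in most cell types, and 13.5 ± 2.96 for Apcdd1. Ndp (5.54 ± 0.568) and Axin2 (5.03 ± 0.744) came next, and their ranges overlapped. Tspan12 (4.01 ± 0.266) lay above Fzd4 (2.67 ± 0.379) and Lrp5 (2.58 ± 0.379), which overlapped each other. Sox17 (1.16 ± 0.197) and Lef1 (0.322 ± 0.0845) were lowest, without overlap between them. In OIR retina the receptor pair separated, with Lrp5 at 3.42 to 4.92 and Fzd4 at 2.08 to 3.29 CPM per kilobase. In treated OIR retina they overlapped again (2.54 to 4.06 for Lrp5 and 2.96 to 3.7 for Fzd4). Sox17 and Lef1 overlapped in both OIR groups.

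The start regions of Ndp, Tspan12 and Axin2 are shown because the first 2 are the genes whose OIR and treated OIR values did not overlap, in opposite directions, and Axin2 is a standard readout of β-catenin. Each sequence is the 250 bases before the start site, 5′ to 3′ on the gene's own strand, from RefSeq (GRCm38.p6), in which 6 of the 9 genes had an entry. Capitals mark CTTTG, the core of the TCF/LEF motif, or its reverse complement CAAAG.
Ndp, chrX:16911775-16912024, minus strand: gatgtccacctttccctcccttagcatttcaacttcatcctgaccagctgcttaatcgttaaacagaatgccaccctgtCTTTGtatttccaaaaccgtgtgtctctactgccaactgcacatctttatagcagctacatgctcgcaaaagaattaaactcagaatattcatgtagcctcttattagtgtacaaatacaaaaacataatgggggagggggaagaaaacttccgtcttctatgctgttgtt
Tspan12, chr6:21852534-21852783, minus strand: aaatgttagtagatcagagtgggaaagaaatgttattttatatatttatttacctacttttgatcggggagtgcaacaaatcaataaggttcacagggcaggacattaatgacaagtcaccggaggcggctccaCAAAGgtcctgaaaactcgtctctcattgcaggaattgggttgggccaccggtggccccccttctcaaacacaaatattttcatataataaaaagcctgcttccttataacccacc
Axin2, chr11:108920099-108920348, plus strand: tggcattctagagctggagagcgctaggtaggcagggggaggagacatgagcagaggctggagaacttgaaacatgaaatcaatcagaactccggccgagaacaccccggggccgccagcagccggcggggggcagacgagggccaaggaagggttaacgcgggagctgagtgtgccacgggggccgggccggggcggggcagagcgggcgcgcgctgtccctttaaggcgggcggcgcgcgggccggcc
Ndp held 1 match on its own strand, Tspan12 held 1 on the opposite strand, and Axin2 held none. The same letters occurred on either strand in 48.6% of 32851 promoters of this length, so a match is common, and its absence says only that these letters are not in this window. The longer motif CTTTGAT, found in 3.21% of promoters, was in none of the 6 members. The HIF letters ACGTG or GCGTG were in 38.6% of promoters, counted by entry. Counted by gene, they were in at least 1 entry of 3 of the 6 members (Fzd4, Ctnnb1 and Lef1), and in none of the 3 shown. Ctnnb1 and Lef1 had more than 1 entry, so the 2 counts are not alike. Of the Lef1 entries, only that at chr3:131156044-131156293 held these letters.

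No member passed the test at an adjusted p below 0.05 in any comparison with edgeR's quasi-likelihood test and Benjamini-Hochberg adjustment over all genes. Other tools called Apcdd1 and Lrp5, as given with those genes, and none called a member in treated OIR against OIR. OIR with control compares the retina after the OIR model and vehicle with the room-air retina at P17. There, 8 of 9 members had a positive fold change, 3 had an unadjusted p below 0.05 (Ndp, Lrp5 and Apcdd1) and the same 3 did not overlap between groups. Among all genes tested, 0.941% passed at the adjusted threshold, 23.8% had an unadjusted p below 0.05 (11.1% higher in OIR), and 15.9% were higher in OIR without overlap. The median log2 fold change of the members was 0.13, beside 0.03 for all genes.

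Treated OIR with control gave 7 positive fold changes, 2 unadjusted p below 0.05 (Tspan12 and Apcdd1), and 1 member, Tspan12, higher without overlap. The background was 0.0228% at the adjusted threshold, 18.6% at the unadjusted one and 12.8% higher without overlap, and the median was 0.25 beside 0.01. Treated OIR with OIR, the comparison that addresses the inhibitor, gave 5 positive and 4 negative fold changes and 1 unadjusted p below 0.05 (Tspan12), with Tspan12 higher and Ndp lower without overlap. In that comparison no gene of 17540 passed the adjusted threshold (0%), 823 had an unadjusted p below 0.05 (4.69%), 3.74% were higher and 5.39% lower without overlap, and the median was 0.06 beside 0.01. The first 2 comparisons share the control mice and the last 2 share the treated mice, so their values are not independent.

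**Figure D1:**
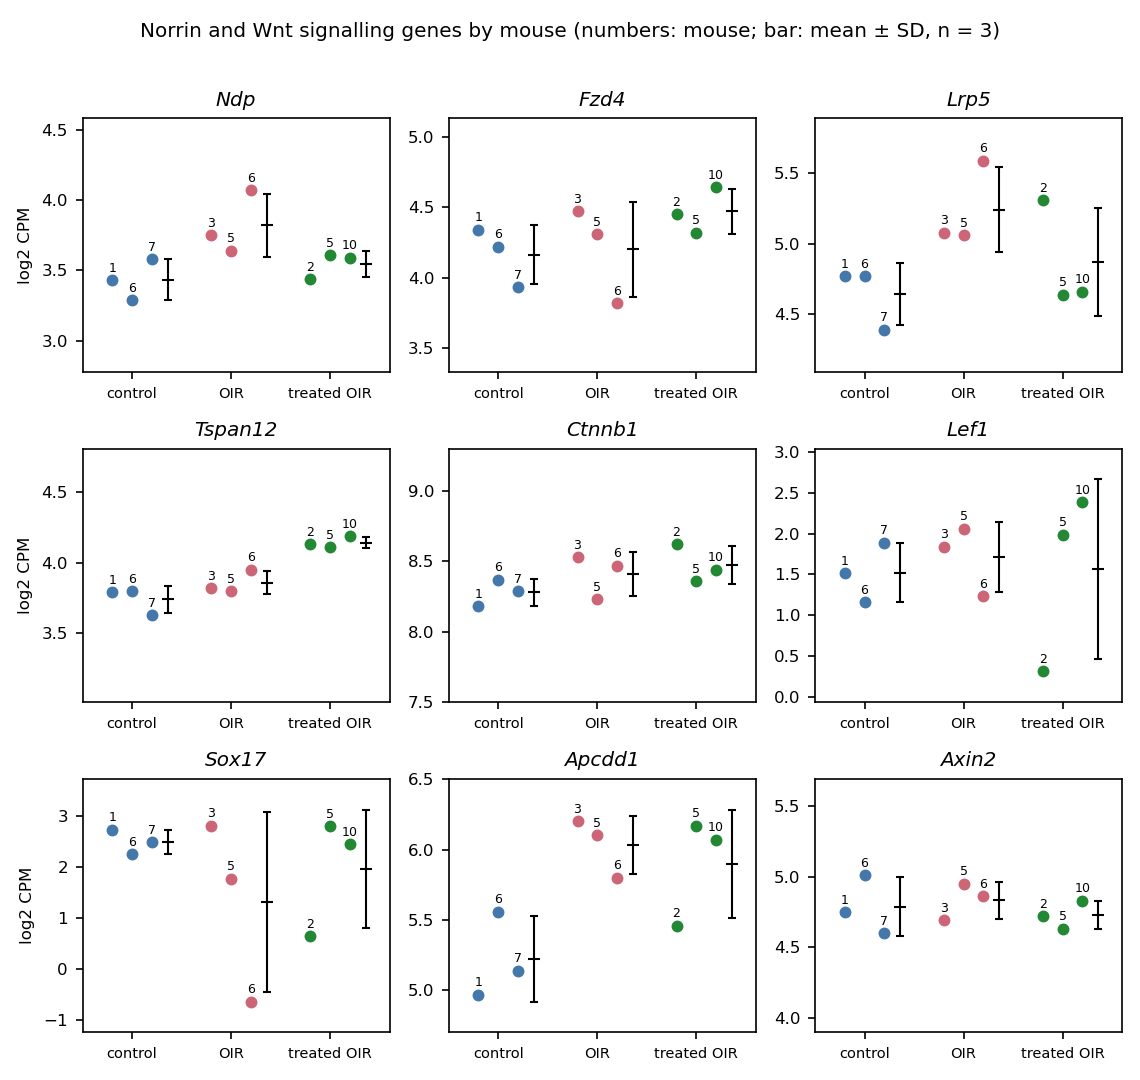
Log2 CPM (y axis, own range per panel) of each of the 9 genes in control, OIR and treated OIR mice (x axis). Points are mice with their numbers, and the bar beside each group is the mean ± SD of 3 mice. Tspan12 in treated mice lies above every other mouse, Apcdd1 in OIR mice lies above the controls, and Sox17 is lowest in OIR mouse 6 and treated OIR mouse 2.

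Ndp (ENSMUSG00000040138, chrX:16885521-16911774, minus strand) encodes the ligand. Its log2 CPM was 3.43, 3.29 and 3.58 in control mice, 3.75, 3.64 and 4.07 in OIR mice, and 3.44, 3.61 and 3.59 in treated OIR mice. Every OIR mouse lay above every control and every treated mouse, whereas control and treated mice overlapped. The log2 fold change was 0.39 in OIR against control (SE 0.17, 95% interval 0.02 to 0.77, adjusted p = 0.188), 0.12 in treated OIR against control (SE 0.17, adjusted p = 0.728) and -0.28 in treated OIR against OIR (SE 0.17, interval -0.65 to 0.1, adjusted p = 1). OIR mouse 6 was the highest, and without it the first value was 0.26 and the last was -0.14. Müller glia are the known source of Norrin, and the summed CPM of 8 Müller markers ran from 3825 to 5244 in control mice, from 5032 to 5652 in OIR mice and from 3204 to 4843 in treated mice, with none of them at 0. The 3204 CPM was in treated mouse 2, the library rich in crystallin counts. Treated mice 5 and 10 had 4843 and 4453 CPM, within the control range. Between treated OIR and OIR, 8 of 8 Müller markers had a negative fold change, 2 of them at an unadjusted p below 0.05 (all genes: 2.3% lower). In OIR against control 6 of 8 were positive, and Slc1a3, the glutamate transporter of these cells, passed the test (log2 fold change 0.95, adjusted p = 0.0447). The part of these markers in the Ndp values was not tested, and in bulk tissue fewer cells of a type and less RNA per cell cannot be told apart.

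Of the receptor complex, Lrp5 was higher in OIR and Tspan12 in treated OIR without overlap with control, and Fzd4 overlapped throughout, with no adjusted p below 0.05. Fzd4 (ENSMUSG00000049791, chr7:89404355-89413134), the receptor that binds Norrin, had log2 CPM of 4.34, 4.22 and 3.93 in control, 4.47, 4.31 and 3.82 in OIR and 4.45, 4.32 and 4.64 in treated mice. All 3 groups overlapped. Its log2 fold change was 0.05 in OIR against control (interval -0.39 to 0.49, adjusted p = 0.902) and 0.25 in treated OIR against OIR (interval -0.18 to 0.69, adjusted p = 1). The lowest Fzd4 value of the 9 mice was in OIR mouse 6, without which the latter value was 0.08.

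Lrp5 (ENSMUSG00000024913, chr19:3584828-3686564) encodes the co-receptor that Norrin shares with Wnt ligands. Its log2 CPM was 4.77, 4.77 and 4.39 in control, 5.08, 5.06 and 5.59 in OIR, and 5.31, 4.64 and 4.66 in treated mice. OIR mice lay above all controls, and among treated mice 5 and 10 lay within the control range while mouse 2 lay within the OIR range. The log2 fold change in OIR against control was 0.61 (SE 0.22, interval 0.1 to 1.12, adjusted p = 0.148). Among the 20 alternatives it passed only with DESeq2 on these 2 groups (adjusted p = 0.0261), which called 5.99% of all genes higher in OIR. Between treated OIR and OIR the log2 fold change was -0.36 (SE 0.22, interval -0.87 to 0.14, adjusted p = 1), being -0.59 without treated mouse 2 and -0.17 without OIR mouse 6. Against control, treated OIR gave 0.25 (adjusted p = 0.574) with that mouse and 0 without it.

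Tspan12 (ENSMUSG00000029669, chr6:21771395-21852515, minus strand) encodes the tetraspanin that strengthens Norrin signalling through FZD4. Log2 CPM was 3.79, 3.8 and 3.63 in control, 3.82, 3.8 and 3.95 in OIR and 4.13, 4.11 and 4.19 in treated mice. The treated mice were the 3 highest of the 9 and had the smallest spread of any member in any group (SD 0.04). With 275 to 354 counts in these mice, so small a spread among 3 values is no measure of how steady the level is. The log2 fold change was 0.41 in treated OIR against control (1.32-fold, SE 0.13, interval 0.12 to 0.69, adjusted p = 0.172) and 0.29 in treated OIR against OIR (1.22-fold, SE 0.13, interval 0 to 0.57, unadjusted p = 0.0475, adjusted p = 1). It was 0.12 in OIR against control (adjusted p = 0.603). Leaving out each mouse moved the treated OIR against OIR value between 0.26 and 0.34, so it was as large without treated mouse 2 (0.32) and without OIR mouse 6 (0.34). A gene on the opposite strand that overlaps Tspan12, Gm30270, had at most 4 counts in a mouse.

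Ctnnb1 (ENSMUSG00000006932, chr9:120929216-120960507) encodes β-catenin, whose signalling is set largely by protein stability, so its mRNA is a level of the gene and no measure of pathway activity. Its log2 CPM was 8.18, 8.37 and 8.29 in control, 8.53, 8.23 and 8.47 in OIR and 8.62, 8.36 and 8.44 in treated mice. The groups overlapped throughout. The fold changes were 0.13 in OIR against control (interval -0.14 to 0.41), 0.2 in treated OIR against control (interval -0.08 to 0.48) and 0.07 in treated OIR against OIR (interval -0.21 to 0.34) on the log2 scale. Ulk4, on the opposite strand, overlaps this gene with at most 393 counts in a mouse, and whether counting used strand is not given in the sources used here.

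**Figure D2:**
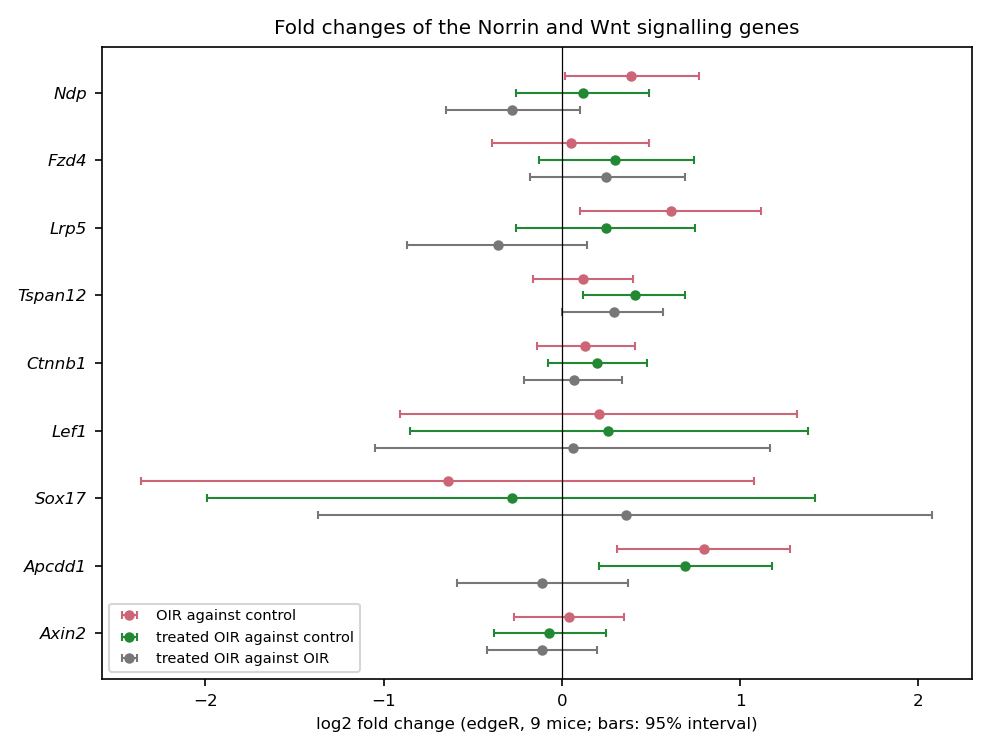
Log2 fold changes (x axis) of the 9 genes (y axis) in the 3 comparisons, with 95% intervals from the edgeR fit of 9 mice. Intervals of Apcdd1, Lrp5 and Ndp in OIR against control and of Apcdd1 and Tspan12 in treated OIR against control lie above 0, and the intervals of Sox17 and Lef1 are the widest.

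Apcdd1 (ENSMUSG00000071847, chromosome 18), a membrane inhibitor of Wnt signalling that is itself a target of β-catenin, had the lowest p of the 9 genes. Log2 CPM was 4.97, 5.56 and 5.14 in control, 6.2, 6.1 and 5.8 in OIR and 5.46, 6.17 and 6.07 in treated mice. All OIR mice lay above all controls, and treated mice 5 and 10 lay within the OIR range while treated mouse 2 fell below control 6. The fold in OIR against control was 1.74 (log2 0.8, SE 0.21, interval 0.31 to 1.28, unadjusted p = 0.00468, adjusted p = 0.0867). The adjusted p was below 0.05 in 5 of 20 alternatives, namely 0.0135 with DESeq2 on all mice, 0.000681 with DESeq2 on the 2 groups, 0.0284 with edgeR on the 2 groups, 0.0356 with limma-voom and 0.0144 without treated mouse 2. The share of all genes called higher in OIR in these 5 was, in the same order, 5.07%, 5.99%, 2.88%, 5.23% and 3.95%, beside the 0.941% called in either direction in the reported test.

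In treated OIR against control Apcdd1 was 1.61-fold (log2 0.69, SE 0.21, interval 0.21 to 1.18, adjusted p = 0.174), and limma-voom, which called 2.62% of all genes higher there, gave an adjusted p of 0.0391. Against OIR it was 0.928-fold (log2 -0.11, SE 0.21, interval -0.59 to 0.37, adjusted p = 1), and the log2 value was 0.11 without treated mouse 2.

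Axin2 (ENSMUSG00000000142, chr11:108920349-108950783), which encodes a scaffold of the β-catenin destruction complex and is a feedback target in many tissues, had log2 CPM of 4.75, 5.01 and 4.6 in control, 4.69, 4.95 and 4.86 in OIR, and 4.72, 4.63 and 4.83 in treated mice. The 3 groups overlapped. Its log2 fold change was 0.04 in OIR against control (SE 0.14, interval -0.27 to 0.35, adjusted p = 0.887), -0.07 in treated OIR against control (interval -0.38 to 0.25, adjusted p = 0.824) and -0.11 in treated OIR against OIR (interval -0.42 to 0.2, adjusted p = 1). The interval for OIR against control thus ended at 0.35 for Axin2 and started at 0.31 for Apcdd1; the difference between these 2 genes was not tested.

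Lef1 (ENSMUSG00000027985, chr3:131110471-131224356), a nuclear partner of β-catenin, had 18 to 100 counts per mouse. Log2 CPM was 1.52, 1.16 and 1.89 in control, 1.84, 2.06 and 1.23 in OIR, and 0.31, 1.99 and 2.39 in treated mice. Treated mice included both the lowest value (mouse 2) and the highest (mouse 10) of all 9. Fold changes were 0.21, 0.26 and 0.06 on the log2 scale in the 3 comparisons in the order above, each with an SE of 0.49 or 0.5, and none had an adjusted p below 0.801. For treated OIR against OIR the fitted value was positive although the mean log2 CPM was lower in treated mice (1.56 against 1.71), and it was 0.5 without treated mouse 2 and -0.38 without treated mouse 10. Against control, leaving out these mice gave 0.68 and -0.17.

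Sox17 (ENSMUSG00000025902, chr1:4490931-4497354, minus strand), a transcription factor of endothelial cells, varied most among the 9 genes, with an SD of 1.18 log2 units over all mice. Log2 CPM was 2.73, 2.25 and 2.48 in control, 2.81, 1.77 and -0.64 in OIR and 0.64, 2.8 and 2.45 in treated mice. The low values came from 12 counts in OIR mouse 6 and 23 in treated mouse 2, beside 71 to 187 in the other 7 mice, and OIR mouse 3 lay above every control. The log2 fold change was -0.64 in OIR against control (SE 0.76, interval -2.36 to 1.08, adjusted p = 0.649), -0.28 in treated OIR against control (SE 0.76, adjusted p = 0.865) and 0.36 in treated OIR against OIR (SE 0.76, interval -1.37 to 2.08, adjusted p = 1). Without OIR mouse 6 the first was -0.13 and the last -0.16, without OIR mouse 3 they were -1.53 and 1.25, and without treated mouse 2 treated OIR against control was 0.14.

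The same pair of libraries was low in several other endothelial genes, which were looked at after the Sox17 values were seen, and in markers of other cells. Beside the ganglion cell markers given above, 6 pericyte markers summed to 92.9 CPM in OIR mouse 6 and 106 CPM in treated mouse 2 against 186 to 436 CPM in the other 7, and 6 pigment epithelium markers to 139 and 174 CPM against 230 to 362 CPM. Within these lists not every marker was low. Among pericyte markers Rgs5, Kcnj8 and Abcc9 were lowest in both of these mice, and Notch3 in OIR mouse 6 only. Pdgfrb (29.8 and 25.6 CPM) and Cspg4 (6.66 and 8.18 CPM) lay within the control ranges. Tyrp1 of the pigment epithelium did too (33.4 and 36.7 CPM). Sox18, a close relative of Sox17, had log2 CPM of 1.66 in OIR mouse 6 and 2.01 in treated mouse 2, against 3.5 to 4.64 in the other 7. Cldn5, the claudin of the blood-retina barrier, was at 4.13 and 3.39 there and at 5.67 to 6.79 elsewhere. Slc38a5, a glutamine transporter of retinal vessels that depends on Norrin signalling in mice, had 11 and 0 counts there and 44 to 164 elsewhere. Of the other barrier genes listed, Abcb1a was low there too, at -2.14 and -3.06 log2 units from the control mean. Mfsd2a was at 0.8 and -0.28 on that scale, Slc2a1 at 0.41 and 1.1, and Plvap at 0.16 and 1.31. The pattern did not extend to all barrier genes or to all endothelial markers. Tek was low in both mice (log2 CPM of 1.09 and 1.13 against 2.35 to 3.81), but Kdr was not (8.13 and 7.69 against 6.66 to 7.81). Summed over 10 endothelial markers, control mice had 278 to 326 CPM, OIR mice 440 to 529 CPM and treated mice 391 to 483 CPM, whereas the mean log2 CPM over the markers was 3.61 in OIR mouse 6 and 3.91 in treated mouse 2, the lowest of 9, and 4.03 to 4.99 elsewhere. No endothelial marker was at 0 in any mouse. Kdr, the VEGF receptor, was the 1 marker of the 10 that passed the test in OIR against control (log2 fold change 1.1, adjusted p = 0.0407). The part of these markers and of lens RNA in the Sox17 values was not tested.

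**Figure D3:**
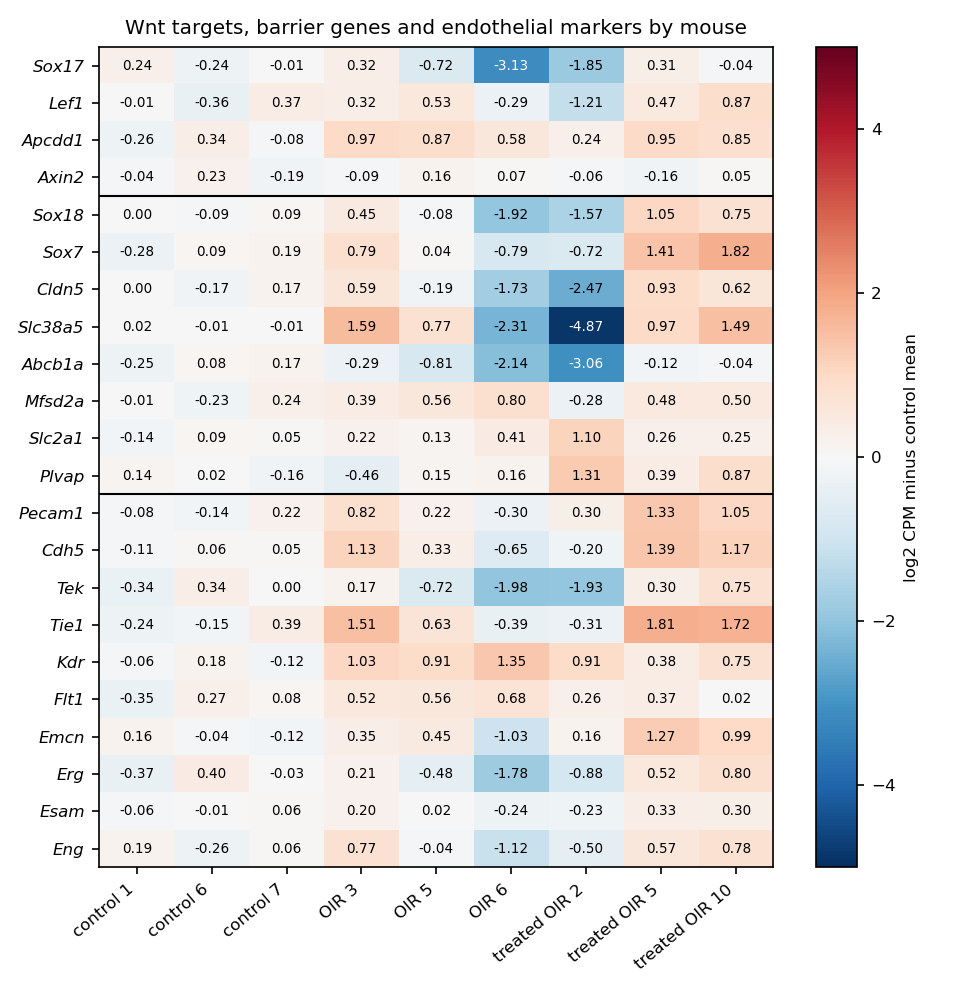
Log2 CPM minus the mean of the control mice (colour and printed value) for 4 members (top), Sox18, Sox7 and barrier genes of retinal endothelium (middle) and 10 endothelial markers (bottom) in each mouse (columns). Sox17, Sox18, Cldn5, Slc38a5, Abcb1a and Tek are lowest in OIR mouse 6 and treated OIR mouse 2, where Kdr and Plvap are not.

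For each member, the gene most alike over the 9 mice was sought among 13969 genes by the root mean square difference of centred log2 CPM. Ctnnb1 was closest to Kpna4 (0.041), Axin2 to Lztr1 (0.065), Tspan12 to Fut11 (0.068), Lrp5 to Itgb5 (0.085) and Ndp to Commd10 (0.096). Apcdd1 was closest to Gm26809 (0.154), Lef1 to Gm26709 (0.249) and Sox17 to A930031H19Rik (0.294). The members' own SD over the mice ran from 0.14 for Ctnnb1 and Axin2 to 1.18 for Sox17. A gene that is flat over the mice would already lie nearer than that SD, so a distance below it does not show a close match.

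Beyond the 9 members, 102 other genes of the Wnt pathway were listed and 87 were tested. None passed an adjusted p below 0.05 with edgeR in any comparison. In OIR against control 14 had an unadjusted p below 0.05 and were higher in OIR and 9 were lower, beside 11.1% and 12.7% of all genes, with a median log2 fold change of 0.12. With DESeq2 on all 9 mice 10 of the 87 passed, with DESeq2 on the 2 groups 16, with limma-voom 13, and without treated mouse 2 the edgeR test passed 14, where 13.1%, 16.6%, 13.1% and 12.5% of all genes passed. Against control, 11 were higher and 8 lower in treated OIR at an unadjusted p below 0.05 (10% and 8.6% of all genes), and DESeq2 on all mice, DESeq2 on the 2 groups and limma-voom passed 4, 1 and 5 (6.14%, 2.57% and 5.28% of all genes). Against OIR, 4 were higher and 1 lower (2.39% and 2.3%), with a median of 0, and no tool passed any.

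Of the genes named below, some passed the threshold in OIR against control under part of the 20 alternatives: Lrp6 under 8, Wnt2b under 7, Ccnd1 under 6, Gsk3a under 5, Tcf7 and Tnks2 under 4 each, and Ryk under 3. In treated OIR against control Ccnd1 and Gsk3a passed under 2 each, and Tnks2 and Plvap under 1 each.

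Of 15 receptors and co-receptors tested in OIR against control, 14 had a positive fold change with a median of 0.41, 4 were higher at an unadjusted p below 0.05 and 8 were higher without overlap, where all genes had a median of 0.03 and shares of 11.1% and 15.9%. Between treated OIR and OIR 12 of the 15 were negative, with a median of -0.17 and 1 lower at an unadjusted p below 0.05 (all genes: median 0.01, 2.3% lower). Lrp6, the closest relative of Lrp5, had log2 CPM of 5.69, 5.86 and 5.85 in control, 6.25, 6.3 and 6.43 in OIR, and 6.37, 6.05 and 6.01 in treated mice. Both OIR groups lay above control, by 0.53 in OIR (SE 0.11, interval 0.27 to 0.78, adjusted p = 0.0603) and 0.35 in treated OIR (SE 0.11, adjusted p = 0.183). Ryk, a receptor for Wnt ligands, was at 0.37 (adjusted p = 0.0981) and 0.33 (adjusted p = 0.191) in the same comparisons. Fzd5, a frizzled of the developing eye, differed by 0.49 in OIR against control (adjusted p = 0.123) and by -0.39 in treated OIR against OIR (SE 0.16, interval -0.76 to -0.02, adjusted p = 1). Without OIR mouse 6, its highest value, these were 0.3 and -0.2.

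Ligands and inhibitors were heterogeneous. Wnt2b, a ligand made at the margin of the retina and in the pigment epithelium, had log2 CPM of 3.1, 4.01 and 3.73 in control, 1.75, 2.19 and 1.51 in OIR and 2.55, 2.51 and 4.03 in treated mice. OIR mice lay below every other mouse. The log2 fold change was -1.84 in OIR against control (0.279-fold, SE 0.45, interval -2.87 to -0.82, adjusted p = 0.0718) and 1.4 in treated OIR against OIR (SE 0.45, unadjusted p = 0.0124, adjusted p = 0.99), the latter being 0.7 without treated mouse 10. Of 6 pigment epithelium markers, none at 0 in any mouse, 5 had a negative fold change in OIR against control (median -0.62). Of the 6, 1 was lower at an unadjusted p below 0.05, beside 12.7% of all genes. In treated OIR against OIR 4 had a positive fold change (median 0.47). The part of these markers in the Wnt2b values was not tested. Sfrp1, a secreted Wnt antagonist, was at 7.98 in treated mouse 2 and 3.37 to 4.64 in the other 8, and its log2 fold change of 2.42 in treated OIR against OIR was 0.2 without that mouse. Wnt7b, looked at after its values were seen, had 2292 counts in treated mouse 2 and 0 to 28 elsewhere.

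Among intracellular components, Gsk3a, a kinase of the destruction complex, was at -0.42 in OIR against control (SE 0.11, adjusted p = 0.0831) and -0.38 in treated OIR against control (SE 0.11, adjusted p = 0.167), and Tnks2, a tankyrase that marks axin for degradation, was at 0.36 (adjusted p = 0.107) and 0.41 (SE 0.11, adjusted p = 0.142). Bcl9, a β-catenin cofactor, was at -0.18 in treated OIR against OIR (SE 0.09, adjusted p = 1). Tcf7, a nuclear relative of Lef1, had log2 CPM of 2.54, 2.07 and 1.81 in control, 2.95, 3.13 and 3.68 in OIR and 2.44, 2.76 and 2.84 in treated mice. Its OIR values lay above all others, with a log2 fold change of 1.13 in OIR against control (SE 0.28, interval 0.5 to 1.75, adjusted p = 0.0707) and -0.61 in treated OIR against OIR (SE 0.27, interval -1.22 to 0.01, adjusted p = 1), the latter being -0.36 without OIR mouse 6.

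Of targets and barrier genes, Ccnd1, which encodes cyclin D1 and answers to many pathways, was at 4.69, 4.94 and 4.33 log2 CPM in control, 5.72, 5.65 and 6.39 in OIR and 6.37, 5.35 and 5.32 in treated mice. Both OIR groups lay above control, by 1.29 in OIR (SE 0.32, adjusted p = 0.0745) and 1.1 in treated OIR (SE 0.32, adjusted p = 0.167; 0.67 without treated mouse 2). Oraov1, on the opposite strand, overlaps Ccnd1 with up to 587 counts in a mouse. Plvap, a protein of fenestrated vessels that is low in mature barrier endothelium, was at 3, 2.88 and 2.7 in control, 2.4, 3.01 and 3.02 in OIR, and 4.17, 3.25 and 3.73 in treated mice. All treated mice lay above the other 6, by 0.94 against OIR (SE 0.27, interval 0.33 to 1.55, unadjusted p = 0.0068, adjusted p = 0.984) and 0.91 against control (SE 0.27, adjusted p = 0.167), and by 0.71 and 0.66 without treated mouse 2. Gtpbp3 overlaps Plvap on the opposite strand with up to 636 counts in a mouse.

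**Figure D4:**
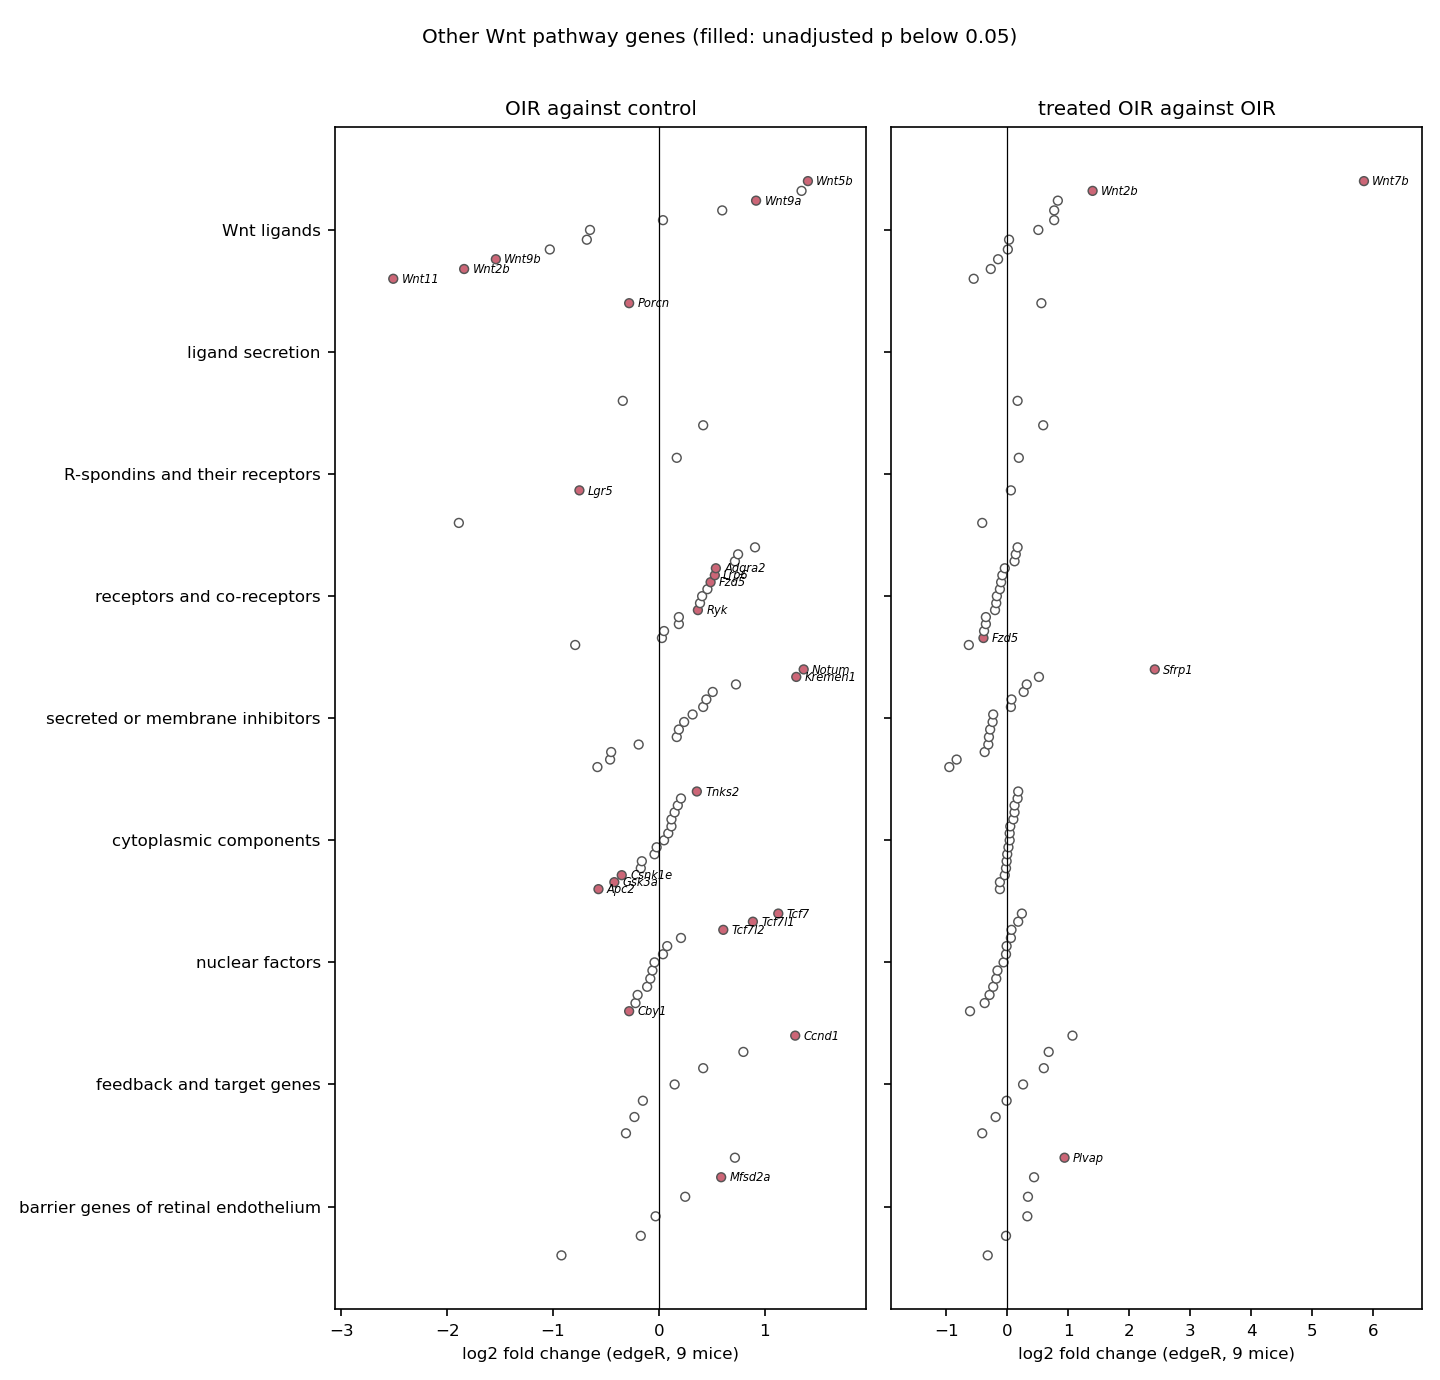
Log2 fold changes (x axis) of the 87 other Wnt genes tested, 1 point per gene, grouped by role (y axis) in OIR against control (left) and treated OIR against OIR (right; the axis is wider). Filled and named points have an unadjusted p below 0.05, and no point passed the adjusted threshold. Receptors and co-receptors lie mostly to the right of 0 on the left and mostly to the left of 0 on the right, and Wnt7b and Sfrp1 stand out through treated OIR mouse 2.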

How the data were processed

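Retinal RNA from 9 mice was sequenced, 3 per group, and groups were taken from the labels. The authors deposited raw counts per gene as whole numbers, with no normalization. The submitters' processing notes name CASAVA and HISAT; the counting tool, annotation, strandedness and build are not given in the sources used here. Positions matched GENCODE M21 for 53462 of the 54409 identifiers found in it (98.3%), and coordinates are therefore on GRCm38. Columns were compared, and no 2 were identical.

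The quasi-likelihood test of edgeR 4.0.16 (R 4.3.3) was run on the counts (TMM, default filter by group, 17540 genes). The model held a mean for each group over all 9 mice, and p was adjusted over all genes tested (Benjamini-Hochberg, two-sided). A call is an adjusted p below 0.05. Log2 CPM used a prior count of 2, and fold changes are on the log2 scale. "Without overlap" means that every mouse of one group lay above every mouse of the other. Levels per kilobase used the deposited gene lengths. The labels do not say whether mice came from separate litters, so p-values measure the spread between these mice. Counts per mouse were lowest for Lef1 (18 to 100) and Sox17 (12 to 187), where counting error weighs most. Ndp had 170 to 370 and Tspan12 190 to 393 counts per mouse, so counting error is part of their spread too.

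The named genes are the 9 members, any other Wnt gene with an adjusted p below 0.05, in each comparison the 6 other Wnt genes with the lowest p among those with a mean log2 CPM of at least 1, and the gene most alike to each member. Of these, 1 gene under this last rule is not named here. The members and lists were chosen with earlier results of these data known. Alternatives were DESeq2 1.42.0 (all mice, or 2 groups), edgeR on 2 groups, limma 3.58.1 (voom with sample quality weights), other scalings and filters, crystallin genes left out, sex as a covariate, and leaving out each mouse. The fits were tested on simulated counts.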

Additional observations from a re-analysis of the deposited data

How the results depend on the processing

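No paired analysis was possible because the groups hold different mice and the labels give no pairing. Each result was recomputed under 20 alternatives, 9 of which left out 1 mouse. Apcdd1 in OIR against control kept its direction in all 20, between 0.66 and 0.99 on the log2 scale, and Tspan12 in treated OIR against OIR between 0.19 and 0.34. Members called in OIR against control numbered 0 with edgeR, 1 with DESeq2 on all mice, 2 with DESeq2 on the 2 groups (Apcdd1 and Lrp5), 1 with edgeR on the 2 groups, 1 with limma-voom and 0 to 1 when each mouse was left out. The first 5 fits called 0.941%, 13.1%, 16.6%, 10.3% and 13.1% of all genes in either direction, and edgeR without treated OIR mouse 2 called 12.5%. In treated OIR against control limma-voom called 1 member (5.28% of all genes), and in treated OIR against OIR no alternative called any. Other Wnt genes called in OIR against control numbered 10 with DESeq2 on all mice, 16 with DESeq2 on the 2 groups, 10 with edgeR on the 2 groups, 13 with limma-voom, 1 with upper-quartile scaling, 3 with no filter, 1 with at least 10 counts in every mouse and 0 to 14 when each mouse was left out (14 without treated OIR mouse 2, and 1 without treated OIR mouse 10). Of all genes, edgeR on the 2 groups called 10.3%, upper-quartile scaling 1.31%, no filter 1.75%, the filter of 10 counts 2.55% and the fit without treated OIR mouse 10 1.08%, in either direction. In treated OIR against control they numbered 4 with DESeq2 on all mice, 1 with DESeq2 on the 2 groups and 5 with limma-voom. The cause of these differences was not tested.

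The fold changes of members and other Wnt genes all missed the threshold in the reported test, and some changed sign under an alternative. With limma-voom these were Axin2 (-0.07) and Sfrp1 (-0.04) in OIR against control, Lrp5 (-0.03), Sox17 (0.2) and Fzd5 (-0.07) in treated OIR against control, and Ctnnb1 (0, rounded), Apcdd1 (0.05) and Tnks2 (-0.01) in treated OIR against OIR. With total counts alone they were Bcl9 (0.02) and Plvap (0.04) in OIR against control, and Ctnnb1 (-0.04), Gsk3a (-0.05) and Tnks2 (-0.05) in treated OIR against OIR. Leaving out each mouse gave in OIR against control -0.09 to 0.22 for Fzd4, -0.04 to 0.16 for Axin2, -0.04 to 0.44 for Sfrp1, -0.09 to 0.01 for Bcl9 and -0.13 to 0.15 for Plvap. In treated OIR against control it gave 0 to 0.36 for Lrp5, -0.17 to 0.68 for Lef1, -0.7 to 0.14 for Sox17 and -0.15 to 0.06 for Axin2. In treated OIR against OIR it gave -0.02 to 0.13 for Ctnnb1, -0.38 to 0.5 for Lef1, -0.16 to 1.25 for Sox17, -0.25 to 0.11 for Apcdd1, -0.12 to 0.04 for Ryk, -0.02 to 0.1 for Gsk3a and -0.6 to 0.08 for Ccnd1. With 3 mice a group the intervals of Sox17 and Lef1 were over 2 log2 units wide, so differences within them were not detectable.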
